A study of Mus musculus with 12 samples.

Results

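Bone marrow endothelial cells from mice after acute myocardial infarction (MI) were compared directly with those from Apoe-/- mice with atherosclerosis. The comparison took 6 of the 12 RNA-seq libraries of the series, 3 per condition, each from 1 mouse, as the columns of the raw count table named them. All 15999 genes that passed a filter on low counts were tested, and the 389 of them on chromosome 7 within 20 Mb of Apoe were described apart. The MI mice were C57BL/6J animals whose infarct was made by ligating a coronary artery for good, and their labels put the sampling 2 days after infarction, whereas the study's own text places it at day 4. The atherosclerotic mice carried Apoe tm1Unc in both copies in every cell of the body and, per the study's methods, ate a western diet for 10 weeks. Naive C57BL/6J controls (n = 3) gave the background level, and 3 mice made hypertensive with angiotensin II entered the fit only to help estimate the spread. All mice were 20 weeks old by their labels. MI and atherosclerosis therefore differed in genotype, diet, surgery and disease at once, and the parts of these cannot be told apart.

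Sinusoidal and arteriolar endothelial cells line the vessels of the bone marrow and supply blood stem cells with retention and growth factors. Infarction releases alarm signals from the dying heart muscle that reach the marrow within days, whereas atherosclerosis in Apoe-/- mice is a chronic state of high blood cholesterol, because apolipoprotein E, the ligand by which the liver clears lipoprotein remnants, is missing. Cells loaded with sterols activate liver X receptors, nuclear receptors that switch on cholesterol export, and interferons switch on antiviral genes through response elements in their promoters.

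The 6 libraries held 17007088 to 21836869 counts. Cells had been sorted as lineage-negative, TER-119-, CD41-, CD45- and CD31hi SCA-1+, yet the gene for CD45, Ptprc, reached 23.6 to 45.8 CPM (counts scaled to library size) per kb of exon, against 0.552 to 0.971 for Cdh5, the endothelial cadherin, and 3.06 to 5.38 for Pecam1, which encodes CD31. The label endothelial cells was thus not borne out by the defining transcripts, and the cells are called the sorted marrow cells below. The summed CPM of 31 endothelial genes was 384 to 484 after MI and 422 to 599.9 in atherosclerosis, so the groups overlapped (exact permutation p = 0.4, of which 0.1 is the smallest that 3 against 3 allows). The libraries are bulk samples, in which fewer cells of a type and less RNA per cell cannot be told apart.

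The direct contrast called 43 genes (0.269% of those tested) at an adjusted p under 0.05 (Benjamini-Hochberg) by the quasi-likelihood F test of edgeR. Of these, 32 were lower after MI than in atherosclerosis (0.2%) and 11 were higher (0.0688%). At an unadjusted p under 0.05 stood 2032 genes (12.7%). Outside the chromosome 7 window the smallest p belonged to the lipid desaturase Scd1, the antiviral enzyme Oas1g, the processed gene copy Pdcd5-ps and the cholesterol exporter Abca1, all lower after MI. The MI and atherosclerosis libraries did not overlap for any of the 43 genes, which largely follows from calling them on these same values. Of all genes, 6.23% were without overlap and higher after MI, and 7.44% were without overlap and lower. The controls lay nearer to MI for 41 of the 43, but the share among all genes was not counted, so this is not set against a background. The atherosclerosis libraries stood clear of the controls for all 43 genes, which 9.51% of all genes did. The MI libraries did so for 16, against a background of 8.86%. The values of both groups had picked the genes, so these counts are not separate support. Tested against the controls, which both comparisons share, 16 of the 43 passed in atherosclerosis (0.144% of all genes) and 0 passed after MI by edgeR, the only tool run on these 2 contrasts, although 12 of the 43 had an unadjusted p under 0.05 after MI (2.8% of all genes) and all 43 had one in atherosclerosis (5.97% of all genes).

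**Figure D1:**
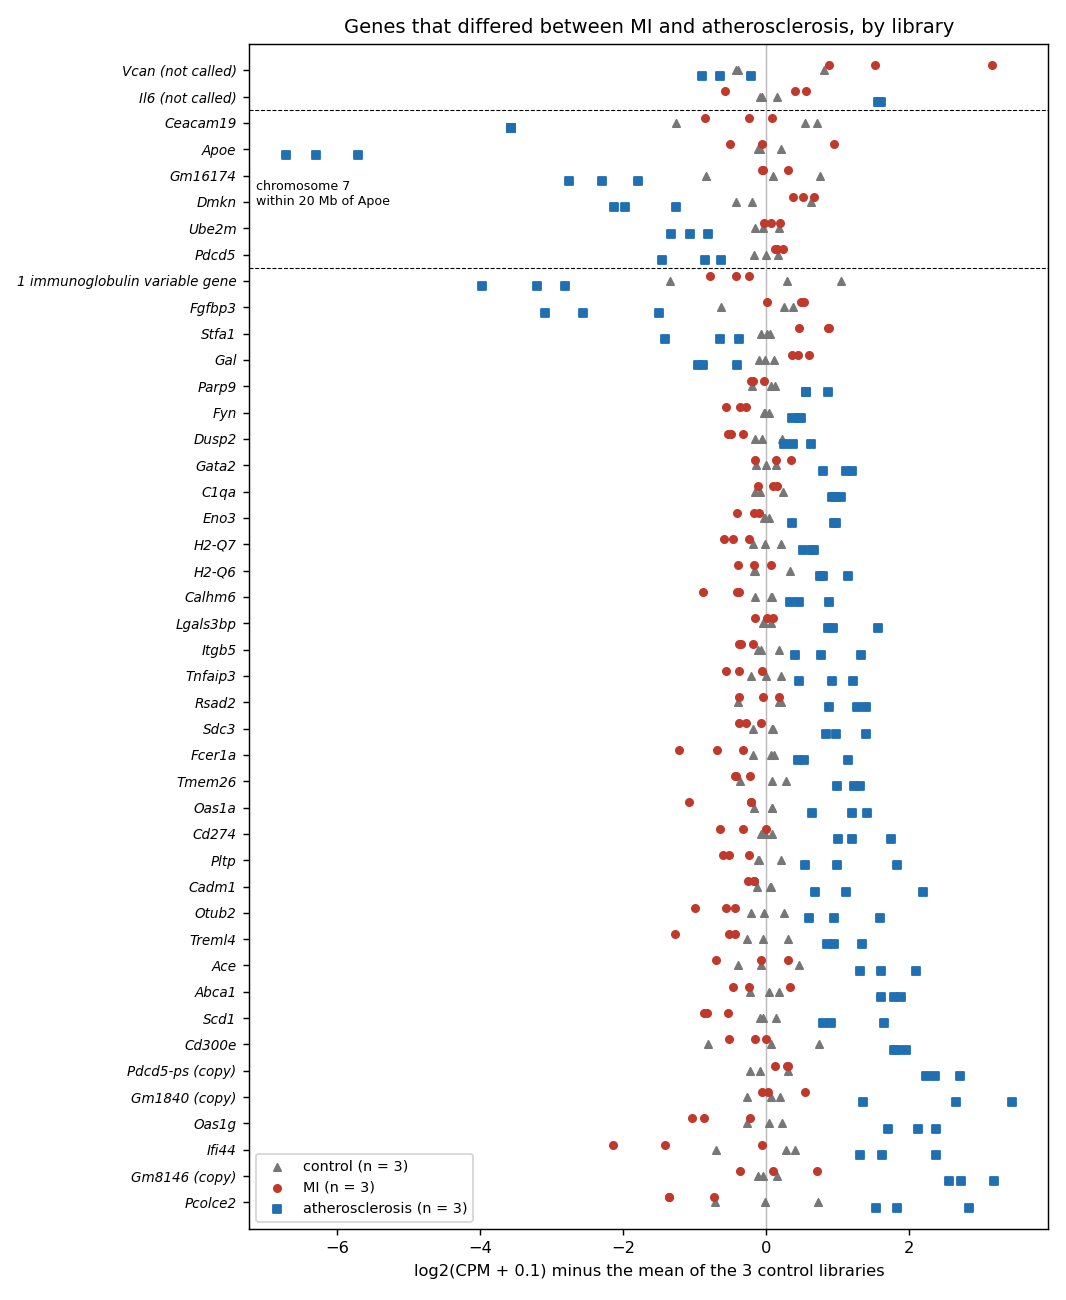
Level of 42 called genes, and of Il6 and Vcan, in every library, as log2(CPM + 0.1) minus the mean of the 3 control libraries (x axis), with 3 points per group for control, MI and atherosclerosis. The atherosclerosis squares lie clear of the MI circles for all 42, which were called on these values, and the MI circles mostly lie nearer to the controls.

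The count of called genes changed when single libraries were left out. For MI it was 9 without replicate 2, 18 without replicate 3 and 8 without replicate 4. For atherosclerosis it was 93 without replicate 2, 40 without replicate 3 and 16 without replicate 4. Each of these fits also had fewer libraries in a group and so less power. Apoe, Scd1, Oas1g, Pdcd5-ps, Abca1 and Treml4 were called with any 1 of the 6 libraries left out. The summed CPM of 18 macrophage genes differed between the groups as well, at 1895 to 2316 after MI and 2559 to 3373 in atherosclerosis without overlap. With that sum as a covariate 1 gene, Apoe, was called. Because the sum separates the groups and includes the called gene C1qa, this drop cannot be read as the part of macrophages.

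**Figure D2:**
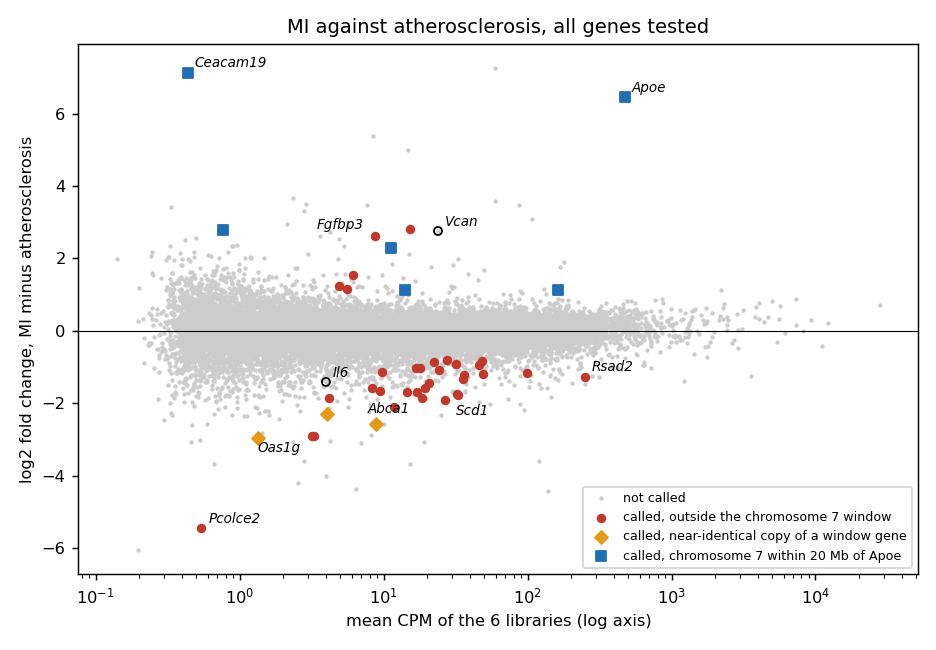
Log2 fold change of MI minus atherosclerosis (y axis) against the mean CPM of the 6 libraries (x axis, log scale) for the 15999 genes tested, each point 1 gene. Called genes outside the chromosome 7 window are mostly below 0, and the 6 called genes inside it, the deleted gene Apoe among them, are all above 0. Il6 and Vcan are ringed and were not called.

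Apoe checked the labels. Its level was 1503, 744 and 550.4 CPM in the MI libraries and 9.78, 7.28 and 14.8 CPM in the atherosclerosis libraries, whereas the controls held 731, 717 and 894 CPM. The groups did not overlap, and the log2 fold change was 6.45 (SE 0.46, edgeR adjusted p = 4.25e-05). Apoe tm1Unc was made in embryonic stem cells of another mouse strain, and DNA of that strain can stay around the targeted gene through backcrossing.

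Within 20 Mb of Apoe (chr7:19696109-19699188, GRCm38), 6 of 389 genes were called (1.54%), against 37 of 15610 outside (0.237%). All 6 were higher after MI, but 1 of them is Apoe, the deleted gene, whose call and direction follow from the knockout. In the window 74 genes (19.0%, 43 higher and 31 lower) had an unadjusted p under 0.05, against 12.5% of genes outside it. That share was 25.5% within 1 Mb of Apoe and 17.7% at 10 to 20 Mb. The median log2 fold change was 0.02 in the window and -0.02 outside. Ube2m, an enzyme that conjugates NEDD8 to cullins, stood at 221, 207 and 243 CPM after MI and at 83.7, 102 and 120 CPM in atherosclerosis (log2 fold change 1.14, SE 0.16, edgeR adjusted p = 0.0124). The atherosclerosis libraries were the low ones, the controls being at 241, 206 and 191 CPM. Dmkn, which encodes the secreted protein dermokine, held 18.5, 20.7 and 16.8 CPM after MI against 2.89, 5.34 and 3.21 CPM (log2 fold change 2.298, SE 0.35, adjusted p = 0.0181). Ceacam19, a cell adhesion molecule that lies close to Apoe, had 47 counts over the MI libraries and 0 counts in each atherosclerosis library, and its level was at least 17.1-fold higher after MI with a floor of 3 counts over the group (adjusted p = 0.0344). Gm16174, an antisense transcript near Apoe and so read as uncertain, had 22, 30 and 21 counts after MI and 4, 5 and 2 counts in atherosclerosis (adjusted p = 0.041). Its call was lost whichever of the 6 libraries was left out, with adjusted p of 0.0627 to 0.127, and those of Ube2m, Dmkn, Ceacam19 and Pdcd5 were lost at least without MI replicates 2 and 4. What part such DNA has in these counts was not tested.

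**Figure D3:**
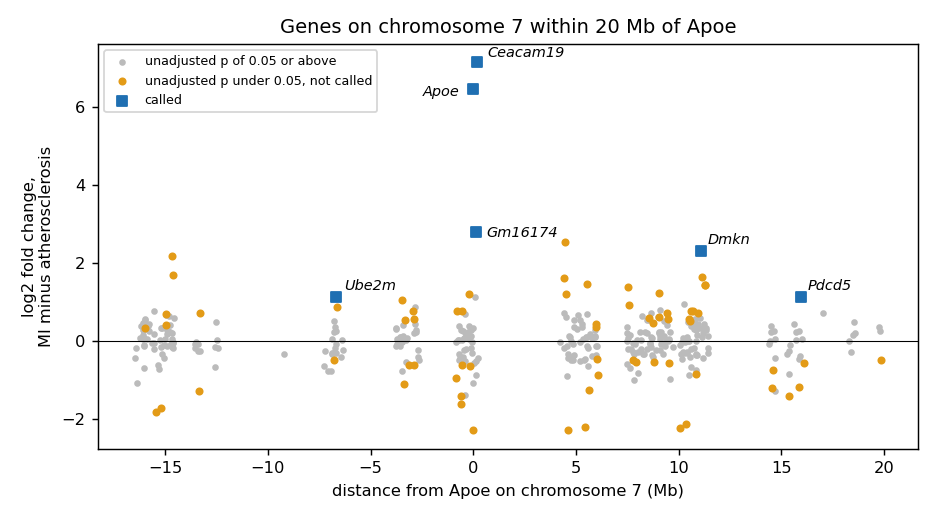
Log2 fold change of MI minus atherosclerosis (y axis) for the 389 genes tested on chromosome 7 within 20 Mb of Apoe, by distance from Apoe in Mb (x axis). The 6 called genes, shown as squares, include Apoe, the deleted gene. All are above 0, and the others lie on both sides of Apoe.

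Pdcd5, a regulator of programmed cell death, lies in the window and was called with its processed copy Pdcd5-ps on chromosome 1, in opposite directions. Pdcd5 stood at 20.1, 18.6 and 19.0 CPM after MI and at 10.9, 9.34 and 6.16 CPM in atherosclerosis (log2 fold change 1.12, SE 0.20, edgeR adjusted p = 0.0401). Pdcd5-ps stood at 1.44, 1.27 and 1.45 CPM after MI and at 6.36, 8.10 and 5.81 CPM in atherosclerosis (log2 fold change -2.28, SE 0.26, adjusted p = 0.00307). Their transcripts match over 381 bases at 100% identity, so the split of reads between them is uncertain. The copy took 6.38% to 7.08% of the summed CPM of the pair after MI, 5.97% to 7.08% in controls and 36.8% to 48.5% in atherosclerosis.

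The other called copies were Gm8146 and Gm1840, whose parent genes Haus5 and Gpi1 were not called. Gm8146 on chromosome 1 matches Haus5, a subunit of the augmin complex of the spindle, at 97.4% over 1860 bases, and Gm1840 on chromosome 8 matches the glycolytic enzyme Gpi1 at 98.7% over 1046 bases. Both parent genes lie in the window. Gm8146 held 3, 5 and 8 counts after MI and 43, 37 and 59 counts in atherosclerosis (log2 fold change -2.97, SE 0.40, edgeR adjusted p = 0.00934). Gm1840 held 60, 43 and 37 counts after MI and 132, 249 and 495 counts in atherosclerosis (log2 fold change -2.56, SE 0.43, adjusted p = 0.0344). The copy took 1.74% to 5.13% of the Haus5 pair after MI and 21.9% to 37.6% in atherosclerosis, and 0.41% to 0.52% of the Gpi1 pair against 1.74% to 4.08%. Of 74 tested genes outside the window with a near-identical match to a gene inside it, 3 were called (4.05%). When gene and copy were summed, the log2 ratio of MI to atherosclerosis was 0.41 for Pdcd5, 0.29 for Haus5 and 0.36 for Gpi1 (exact permutation p = 0.1, 0.1 and 0.5, two-sided). Without the copies, 34 genes outside the window were called, 29 of them lower after MI. Leaving out MI replicate 2 or 3 ended the call of Gm8146 (adjusted p up to 0.0583), and Gm1840 was called without atherosclerosis replicate 2 only (adjusted p = 0.00133).

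Of 20 tested liver X receptor and cholesterol efflux targets, 3 were called lower after MI than in atherosclerosis (Scd1, Abca1 and Pltp, against 0.2% of all genes), 1 was called higher (Apoe, the deleted gene), and 11 had an unadjusted p under 0.05 in the lower direction (7.36% of all genes). The median log2 fold change of the list was -0.65, against -0.02 for all genes, and 4 of the 20 lay above 0. The summed CPM of the list, in which Apoe is counted, was 2200, 1622 and 1420 after MI and 1549, 1020 and 1268 in atherosclerosis, with overlap (log2 ratio 0.45, exact permutation p = 0.2). The deleted gene Apoe, at the levels given above, makes up a large part of the MI sums and little of those in atherosclerosis. It sets the direction of this ratio, which is opposite to that of the list median, and a sum without Apoe was not tested. Scd1 (chr19:44394455-44407879), the stearoyl-CoA desaturase that makes monounsaturated fatty acids, stood at 10.2, 12.9 and 10.5 CPM after MI and at 58.6, 35.2 and 32.6 CPM in atherosclerosis. The controls lay between the groups at 18.1, 17.5 and 20.6 CPM. The log2 fold change was -1.91 (SE 0.21, edgeR adjusted p = 0.00307), and against controls the change was 1.17 in atherosclerosis (adjusted p = 0.0482) and -0.74 after MI (not called). Reads of Scd1 and its neighbour Scd2 can be confused, since 95.5% of 623 bases are shared, and Scd2 pointed the same way at a log2 fold change of -1.23 (adjusted p = 0.0894).

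Abca1 (chr4:53030787-53159895) encodes the transporter that loads cholesterol onto apolipoprotein A-I. It stood at 10.7, 7.197 and 6.14 CPM after MI, overlapping the 7.23 to 9.62 CPM of the controls, and at 31.7, 25.96 and 29.4 CPM in atherosclerosis. The log2 fold change was -1.86 (SE 0.23, edgeR adjusted p = 0.00504). Pltp, picked after its values were seen, is the phospholipid transfer protein of plasma and stood at 8.06, 6.19 and 6.604 CPM after MI and at 13.9, 19.0 and 34.0 CPM in atherosclerosis (log2 fold change -1.68, SE 0.31, adjusted p = 0.0427). Its call was lost without any 1 of 5 libraries, atherosclerosis replicate 2 being the exception, with adjusted p up to 0.162. Mylip and Abcg1, picked after their values were seen, did not pass. Mylip, a ubiquitin ligase, had a log2 fold change of -0.66 (adjusted p = 0.0596). Abcg1, which exports cholesterol to HDL, had 22.4, 35.7 and 44.0 CPM after MI and 325, 70.1 and 70.9 CPM in atherosclerosis (adjusted p = 0.128), 1 library being far above the other atherosclerosis libraries.

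Of 32 tested genes of sterol and fatty acid synthesis, 11 had an unadjusted p under 0.05 and were higher after MI (5.34% of all genes), 22 had a fold change above 0 (47.7% of all genes), and the median log2 fold change was 0.35. In edgeR 1 gene of the list, Scd1, was called, and it was lower. DESeq2 called 2 higher and 2 lower, against 87 higher and 214 lower among all 15999 genes, and limma called 1 lower. The summed CPM of the list was 869, 1094 and 994 after MI and 1126, 845 and 1105 in atherosclerosis, with overlap (log2 ratio -0.06, exact permutation p = 0.7). The list median stayed between 0.27 and 0.46 relative to all genes under the 22 alternatives.

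Of 77 tested interferon response genes, 6 were called, all lower after MI (0.2% of all genes), 52 had an unadjusted p under 0.05 in that direction (7.36% of all genes) and 0 in the other, and 72 had a fold change below 0, as did 52.3% of all genes. The median log2 fold change was -0.79. Against the shared controls the median was -0.27 after MI and 0.51 in atherosclerosis. The summed CPM of the list was 3733, 4596 and 4507 in the MI libraries and 5523, 6018 and 7301 in the atherosclerosis libraries. The controls held 4745 to 4830, below all atherosclerosis libraries. MI and atherosclerosis did not overlap (exact permutation p = 0.1, the smallest possible), and 36 lists were compared in this way. These sums leave out the TMM factors, which were 0.960 for MI replicate 3 and 1.016 and 1.027 for control replicates 3 and 4. Whether all MI libraries lie below the controls therefore depends on the scaling.

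Oas1g (chr5:120876142-120887613), an oligoadenylate synthetase of the antiviral RNase L pathway, had 10, 12 and 18 counts after MI and 96, 116 and 113 counts in atherosclerosis, or 7.51-fold more in CPM (log2 fold change -2.91, SE 0.33, edgeR adjusted p = 0.00307). Its neighbour Oas1a went from 6.29, 11.5 and 11.5 CPM to 21.0, 31.0 and 35.6 CPM (log2 fold change -1.58, SE 0.27, adjusted p = 0.0344). The pair shares 97.6% of 1861 bases, so the split of reads between them is uncertain. Lgals3bp, a secreted galectin-binding glycoprotein, stood at 66.0, 62.1 and 55.6 CPM after MI, close to 65.1, 59.7 and 60.6 CPM in controls, and at 184, 113 and 119 CPM in atherosclerosis (log2 fold change -1.18, SE 0.19, adjusted p = 0.0285).

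The other called interferon genes, picked after their values were seen, were Rsad2, Ifi44 and Parp9. Rsad2 (chr12:26442746-26456452) encodes viperin, which blocks viral RNA synthesis, and stood at 118, 174 and 149 CPM after MI and at 283, 404 and 368 CPM in atherosclerosis (log2 fold change -1.26, SE 0.22, edgeR adjusted p = 0.0375). Ifi44 had 5, 28 and 9 counts after MI and 90, 85 and 166 counts in atherosclerosis (log2 fold change -2.92, SE 0.52, adjusted p = 0.0401). Parp9, a partner of the ubiquitin ligase DTX3L, had a log2 fold change of -0.81 (SE 0.15, adjusted p = 0.041). Oas1g was called with any library left out, whereas Oas1a, Rsad2, Ifi44 and Parp9 lost their calls without MI replicate 2 or 4 or atherosclerosis replicate 3 or 4, at adjusted p up to 0.162, and Lgals3bp without any of the MI replicates, at up to 0.119.

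The promoters of called interferon genes are shown for the core of the interferon-stimulated response element, as a description of these genes. RefSeq promoters of build GRCm38.p6, from 250 bases before to 50 after the start, were found for 25 of the 32 genes called lower after MI and searched for GAAANNGAAA on both strands. The core was present in 3 of the 5 called interferon genes with a promoter (Oas1g, Oas1a and Rsad2). In the interferon list 29 of 60 genes had it (48.3%), against 3.44% of all 32851 promoters and 4.01% of tested genes with a promoter. The list consists of interferon response genes, so its share follows from its making and says nothing about the calls. Calhm6, a called gene of the calcium homeostasis modulator channels outside the list, also had the core. It was the 1 gene with the core among 20 called lower outside the interferon list (5.0%), which is near the 4.01% of tested genes. Capitals mark the core, which in Oas1g is a pair of overlapping matches that begin 18 and 12 bases before the start, and which in Rsad2 lies on the opposite strand.
Oas1g, chr5:120887564-120887863, minus strand: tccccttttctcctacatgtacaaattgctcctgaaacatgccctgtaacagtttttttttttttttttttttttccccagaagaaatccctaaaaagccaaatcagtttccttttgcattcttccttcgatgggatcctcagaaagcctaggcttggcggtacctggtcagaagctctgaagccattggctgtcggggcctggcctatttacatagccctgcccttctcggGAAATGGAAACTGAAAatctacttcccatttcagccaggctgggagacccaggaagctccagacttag
Rsad2, chr12:26456403-26456702, minus strand: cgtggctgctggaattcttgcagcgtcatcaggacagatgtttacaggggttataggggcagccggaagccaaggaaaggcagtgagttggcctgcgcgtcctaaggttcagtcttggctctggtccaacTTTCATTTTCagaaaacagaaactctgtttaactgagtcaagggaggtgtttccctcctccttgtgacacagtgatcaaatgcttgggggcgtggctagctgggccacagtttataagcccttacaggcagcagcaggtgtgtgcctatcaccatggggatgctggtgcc
Calhm6, chr10:34127923-34128222, minus strand: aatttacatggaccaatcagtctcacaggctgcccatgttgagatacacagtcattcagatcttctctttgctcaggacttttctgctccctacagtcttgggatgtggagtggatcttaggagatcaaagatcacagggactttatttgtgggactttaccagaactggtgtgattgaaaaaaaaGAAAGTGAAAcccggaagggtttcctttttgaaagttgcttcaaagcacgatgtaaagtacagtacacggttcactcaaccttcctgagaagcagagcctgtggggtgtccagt
Calhm6 stood at 4.86, 6.88 and 6.78 CPM after MI and at 16.6, 11.4 and 12.4 CPM in atherosclerosis (log2 fold change -1.13, SE 0.21, edgeR adjusted p = 0.041). It was called when atherosclerosis replicate 3 was left out (adjusted p = 0.0484) and lost its call without any of the other 5 libraries.

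Guanylate-binding proteins and immunity GTPases, which attack the vacuoles of intracellular pathogens after interferon-γ, gave 0 calls in edgeR and 0 in limma. DESeq2 called 4, all lower after MI, against 214 of all 15999 genes lower. Of the 18 tested, 14 had an unadjusted p under 0.05 in edgeR (7.36% of all genes in that direction). All 18 had a log2 fold change below 0, with a median of -0.83. Their summed CPM was 201, 306 and 265 after MI and 493, 373 and 508 in atherosclerosis, without overlap. Igtp stood nearest to the threshold at 28.1, 35.9 and 32.7 CPM after MI and 64.3, 52.1 and 65.9 CPM in atherosclerosis (log2 fold change -0.91, SE 0.18, adjusted p = 0.0524). Irgm1 had an adjusted p of 0.0624 and Gbp4 of 0.0628.

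Of 29 genes of MHC and antigen presentation, 2 were called, both class Ib molecules lower after MI (0.2% of all genes). H2-Q7 stood at 10.4, 11.4 and 13.3 CPM after MI and at 22.4, 25.02 and 24.4 CPM in atherosclerosis (log2 fold change -1.03, SE 0.16, edgeR adjusted p = 0.0181). H2-Q6 stood at 18.3, 13.3 and 15.5 CPM against 38.8, 30.5 and 29.5 CPM (log2 fold change -1.07, SE 0.18, adjusted p = 0.0344). The pair shares 95.1% of 983 bases, and reads may be split between them. Cd274, which encodes the T cell inhibitor PD-L1, was at 3.53, 5.56 and 4.46 CPM after MI, beside 5.33 to 5.90 CPM in controls, and at 18.9, 11.3 and 12.9 CPM in atherosclerosis (log2 fold change -1.67, SE 0.24, adjusted p = 0.0124). Without MI replicate 2 or 4 the 3 genes were not called, at adjusted p of up to 0.126.

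**Figure D4:**
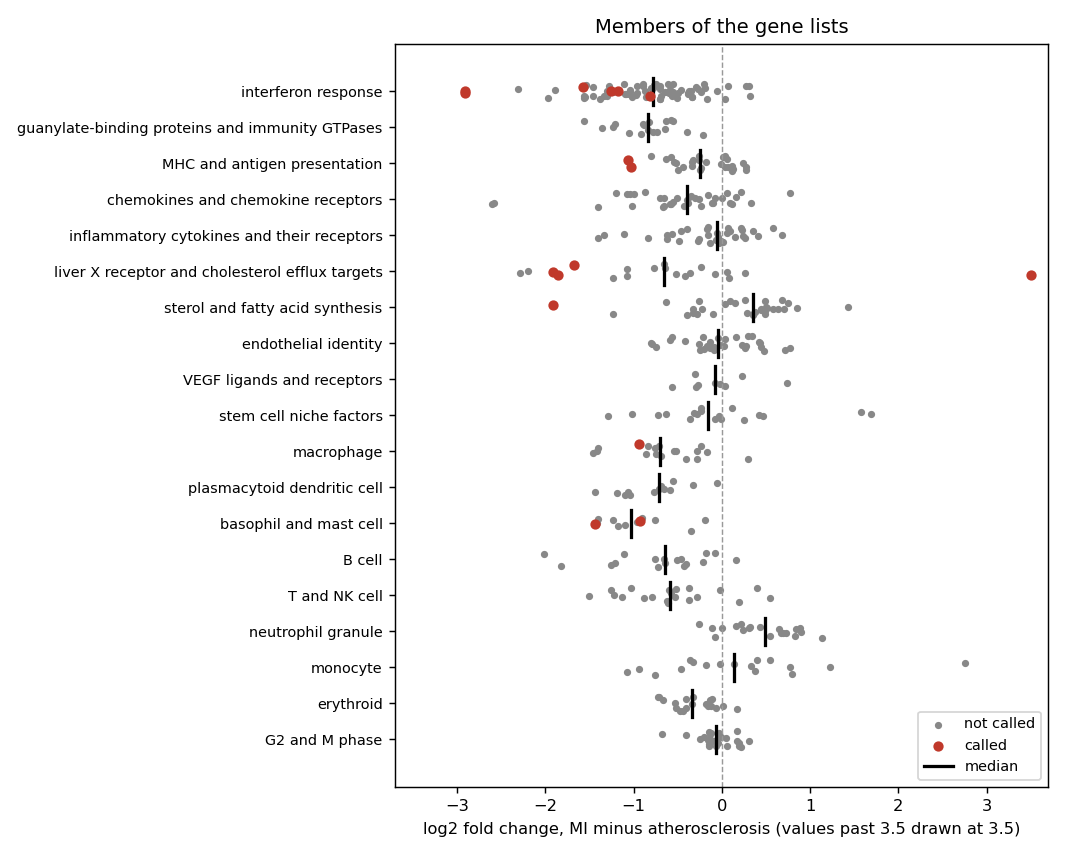
Log2 fold change of MI minus atherosclerosis (x axis) for each tested member of 19 gene lists (y axis), with the list median as a bar; called genes are red and Apoe, at 6.45, is drawn at 3.5. Interferon, guanylate-binding, macrophage, plasmacytoid dendritic and basophil lists lie mostly below 0, and the neutrophil and sterol synthesis lists mostly above it.

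Of 18 macrophage genes, 1 was called lower after MI (0.2% of all genes), 11 had an unadjusted p under 0.05 in the lower direction (7.36% of all genes) and the median log2 fold change was -0.70. C1qa, a chain of complement C1q made by tissue macrophages, stood at 32.5, 33.7 and 28.2 CPM after MI, at 36.0, 27.3 and 28.6 CPM in controls and at 60.1, 62.7 and 57.7 CPM in atherosclerosis (log2 fold change -0.94, SE 0.16, edgeR adjusted p = 0.0344). Cd5l, a macrophage protein induced by liver X receptors, had a log2 fold change of -1.46 (SE 0.31, adjusted p = 0.0689). Basophil and mast cell genes gave 2 calls of 12, both lower after MI, 9 with an unadjusted p under 0.05 in that direction (the same 0.2% and 7.36% of all genes) and a median of -1.03. Their summed CPM was 1144, 3021 and 3325 after MI and 7567, 6320 and 2985 in atherosclerosis, so the groups overlapped (exact permutation p = 0.3). Fcer1a, the IgE-binding chain of the high-affinity receptor, stood at 7.73, 14.4 and 11.2 CPM after MI and at 26.02, 39.8 and 24.5 CPM in atherosclerosis (log2 fold change -1.44, SE 0.25, adjusted p = 0.0378). Gata2, a transcription factor of progenitors, mast cells and basophils, stood at 18.1, 22.3 and 25.8 CPM against 35.0, 44.0 and 46.6 CPM (log2 fold change -0.92, SE 0.17, adjusted p = 0.041). Without MI replicate 2 or 4 or atherosclerosis replicate 3 or 4, none of C1qa, Fcer1a and Gata2 was called (adjusted p up to 0.143).

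All 13 plasmacytoid dendritic cell genes, the cells that make most type I interferon, had a log2 fold change below 0, with a median of -0.72. Of these, 11 had an unadjusted p under 0.05 in edgeR (7.36% of all genes in that direction). Of the 13, edgeR called 0, limma 0 and DESeq2 6, against 214 of all 15999 genes called lower by DESeq2. Their summed CPM was 486, 583 and 620 after MI, 692 to 793 in controls and 802, 858 and 948 in atherosclerosis, without overlap. Siglech, their surface lectin, had an adjusted p of 0.0596 at a log2 fold change of -1.10. The B cell sum was 249, 484 and 583 after MI and 1336, 624 and 611 in atherosclerosis, and did not overlap either. The controls held 863, 713 and 640, above all MI libraries. Against these controls the median log2 fold change of the B cell list was -0.75 after MI and -0.16 in atherosclerosis. Neutrophil granule genes leaned toward MI with a median of 0.49, and 6 of 20 had an unadjusted p under 0.05 and were higher after MI (5.34% of all genes). Of these 20 genes, edgeR called 0, limma 0 and DESeq2 2, against 87 of all 15999 genes called higher by DESeq2. Their sums overlapped, at 69410 to 100856 CPM after MI and 37850 to 73565 CPM in atherosclerosis, as did those of the monocyte and erythroid lists. The part of these cells in the calls was not tested. The covariate fits cannot show it, because the sums come from the same counts and the macrophage sum separates the groups. With the neutrophil sum as a covariate 19 genes were called, with the erythroid sum 660 and with the monocyte sum 48.

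**Figure D5:**
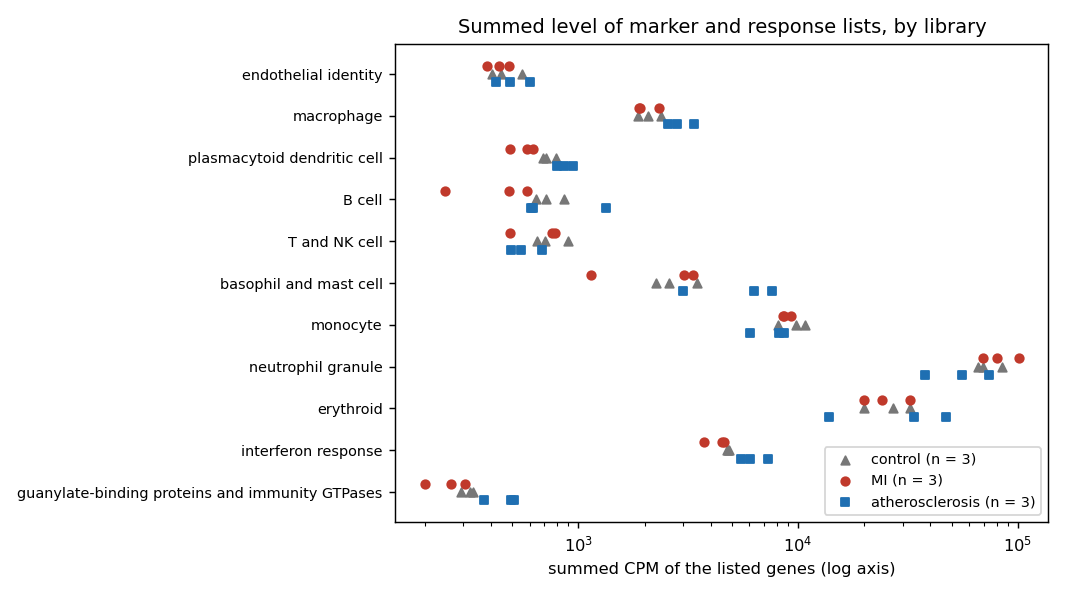
Summed CPM (x axis, log scale) of the genes of 11 marker and response lists in each control, MI and atherosclerosis library, 1 point per library. MI and atherosclerosis do not overlap for the macrophage, plasmacytoid dendritic cell, B cell, interferon and guanylate-binding lists. The 11 lists were taken from 36 whose sums were compared. With a smallest possible p of 0.1, some of 36 lists can lack overlap without any difference between the groups.

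Treml4, Cd300e, Sdc3, Fyn, Tnfaip3 and Itgb5 were also called lower after MI. Treml4, a receptor for dead cells on myeloid cells, stood at 9.94, 17.8 and 16.7 CPM after MI and at 61.1, 46.5 and 43.7 CPM in atherosclerosis, the controls lying between them at 20.0, 23.4 and 29.8 CPM (log2 fold change -1.77, SE 0.24, edgeR adjusted p = 0.00934). Cd300e, an activating receptor of monocytes, stood at 3.59, 5.19 and 4.63 CPM against 18.8, 18.3 and 20.4 CPM (log2 fold change -2.10, SE 0.33, adjusted p = 0.0233). Sdc3, the heparan sulfate proteoglycan syndecan-3, stood at 18.4, 22.9 and 19.9 CPM against 43.2, 47.3 and 63.5 CPM (log2 fold change -1.33, SE 0.18, adjusted p = 0.00934). Fyn, a kinase of the Src family, moved least of these, from 30.7, 35.3 and 37.1 CPM to 62.1, 58.4 and 63.5 CPM (log2 fold change -0.83, SE 0.12, adjusted p = 0.0152). Tnfaip3, the A20 brake on NF-κB, had a log2 fold change of -1.22 (SE 0.21, adjusted p = 0.0344), and Itgb5, the integrin β5 chain, of -1.18 (SE 0.20, adjusted p = 0.0344). Treml4 kept its call without any 1 library, and Cd300e, Sdc3, Fyn, Tnfaip3 and Itgb5 lost theirs without MI replicate 2 and without MI replicate 4, at adjusted p up to 0.141.

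Tmem26, a membrane protein, had a log2 fold change of -1.57 (SE 0.21, edgeR adjusted p = 0.00934) and Otub2, a deubiquitinase, of -1.75 (SE 0.25, adjusted p = 0.0124), and both lost their calls without MI replicate 2 or 4, at adjusted p up to 0.069. The remaining called genes lower after MI, given after their values were seen, were Pcolce2, Dusp2, Cadm1, Eno3 and Ace. Pcolce2, an enhancer of procollagen processing, had 1 count over the MI libraries and 66 over the atherosclerosis libraries, a CPM ratio of 60.6 with a counting interval of 10.5 to 2428. Ace, the angiotensin-converting enzyme, had 21, 35 and 42 counts after MI and 137, 85 and 170 counts in atherosclerosis (log2 fold change -1.86, SE 0.34, adjusted p = 0.041). The log2 fold changes of Dusp2, Cadm1 and Eno3 were -0.87, -1.69 and -1.02. All 5 lost their calls without MI replicate 2, 3 or 4, at adjusted p up to 0.156.

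Outside the window 5 genes (0.032%) were called higher after MI, against 32 called lower (0.205%). Fgfbp3, which releases fibroblast growth factors from the matrix, stood at 16.8, 11.7 and 16.3 CPM after MI, at 15.02, 13.9 and 7.49 CPM in controls and at 4.05, 1.88 and 1.27 CPM in atherosclerosis (log2 fold change 2.62, SE 0.38, edgeR adjusted p = 0.0124). Gal, the neuropeptide galanin, stood at 6.74, 6.35 and 7.53 CPM against 2.62, 3.7 and 2.50 CPM, with controls between at 4.88, 5.31 and 4.62 CPM (log2 fold change 1.23, SE 0.22, adjusted p = 0.0401). Stfa1, a stefin that inhibits cathepsins in neutrophils, stood at 10.05, 7.46 and 9.91 CPM against 1.96, 4.11 and 3.41 CPM (log2 fold change 1.54, SE 0.28, adjusted p = 0.0401), and shares 96.9% of 618 bases with BC100530. An immunoglobulin variable gene was also called. For Gal and Stfa1 the MI libraries were also clear of the controls. Without MI replicate 2 or 4 none of the 5 was called, at adjusted p up to 0.137.

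Il6 and Vcan had been singled out by the study from these same libraries, so their choice was not independent of the values. The study chose them against naive controls, not in the contrast shown here. It also reported higher Il6 in atherosclerosis and higher Vcan after MI by real-time PCR in sorted cells, and deleted each gene in endothelial cells. Il6, the inflammatory cytokine interleukin 6, stood at 1.21, 2.80 and 2.49 CPM after MI, at 2.07, 1.79 and 1.75 CPM in controls and at 5.87, 5.70 and 5.76 CPM in atherosclerosis. The groups did not overlap, and the log2 fold change of -1.41 (SE 0.32) did not pass (edgeR adjusted p = 0.089). Vcan (chr13:89655312-89742509), which encodes the proteoglycan versican and is also a monocyte marker, stood at 81.7, 16.8 and 26.2 CPM after MI, at 6.73, 16.03 and 6.90 CPM in controls and at 5.78, 4.82 and 7.79 CPM in atherosclerosis. MI replicate 2 was far above the other MI libraries. The log2 fold change was 2.76 (SE 0.54, adjusted p = 0.0585), and without MI replicate 3 it was 3.14 and passed (adjusted p = 0.0386).

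Of 31 endothelial identity genes 0 were called in edgeR and 0 in DESeq2, 4 had an unadjusted p under 0.05 (1 higher and 3 lower, against 12.7% of all genes) and the median log2 fold change was -0.05. Pecam1 had 20.4, 20.1 and 19.7 CPM after MI and 23.6, 25.2 and 31.8 CPM in atherosclerosis (log2 fold change -0.42, SE 0.15, adjusted p = 0.283). Of 9 VEGF ligands and receptors 0 had an unadjusted p under 0.05 in edgeR and 0 were called in DESeq2, and their median was -0.07. Of 18 stem cell niche factors 0 were called in edgeR and 0 in limma, and 4 had an unadjusted p under 0.05 in edgeR (12.7% of all genes). DESeq2 called 1 of them, higher after MI, against 87 of all 15999 genes higher. Spp1, the matrix protein osteopontin, came nearest in edgeR at 108, 77.5 and 42.7 CPM after MI and 14.0, 30.1 and 26.9 CPM in atherosclerosis (log2 fold change 1.69, SE 0.39, adjusted p = 0.0976). Of 25 genes of the G2 and M phases 0 had an unadjusted p under 0.05 in edgeR and 0 were called in DESeq2, with a median of -0.06. A p that misses the threshold does not show that the groups were alike in these genes.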

How the data were processed

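RNA was sequenced from sorted mouse bone marrow cells in 12 libraries, 3 mice in each of 4 groups. Per the labels and the study's methods, the authors made strand-marking poly(A) libraries, sequenced single 50 bp reads, aligned them with STAR 2.7.3a to GRCm38.p6 and deposited raw counts per gene, with no normalization. Which strand setting was counted is not given in the sources used here. Of the 477 genes lying wholly under exons of the opposite strand, 99.4% had 0 counts, against 38.4% of genes with no such exon. Such genes and antisense partners were therefore read as uncertain.

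Counts were filtered with filterByExpr, scaled by TMM and fitted with edgeR 4.0.16 (R 4.3.3) using 1 coefficient per group over all 12 libraries, and the contrast was MI minus atherosclerosis. A gene was called at a Benjamini-Hochberg adjusted p under 0.05 over the 15999 genes tested. Standard errors were derived from each log2 fold change and its F statistic, and levels are TMM-scaled CPM, counts relative to library size. Exceptions are the sums over lists and the levels per kb of exon, which are CPM of total counts without the TMM factors. Sums over 36 lists were compared with exact two-sided permutation tests over samples, without adjustment for the number of lists. The scripts were tested on simulated data. Copies of window genes were found with blastn 2.17.0+ from transcript matches of at least 95% identity over at least 150 bases and 50% of the transcript. DESeq2 1.42.0, limma 3.58.1 and the other alternatives are described in the closing section.

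Members and gene lists were chosen with earlier results of these data known. The genes named were Apoe, Il6 and Vcan, the 15 with the smallest p in each direction outside the chromosome 7 window, all called in the window, and up to 3 members of each list with the smallest p; others are named as picked after their values were seen, and some genes that the rule names are not reported here. Nothing states that replicates were processed apart beyond being 1 mouse each, and p-values measure the spread between these libraries. Counting intervals cover counting error only.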

Additional observations from a re-analysis of the deposited data

How the results depend on the processing

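All 43 called genes kept their direction under every alternative in which they were tested, but the number of calls did not hold under all of them. The number was 37 with limma, 44 with RLE in place of TMM scaling, and 50 with at least 10 counts required in every library. It was 274 with edgeR's likelihood-ratio test, 301 with DESeq2, 790 with no filter beyond 1 count, 66 without immunoglobulin and hemoglobin genes, 152 at an adjusted p under 0.1, and 3 when only the 6 libraries were fitted. With the summed level of a list as a covariate it was 660 (erythroid), 19 (neutrophil granule) and 1 (macrophage). Leaving out 1 library gave 8 to 93 calls. In the chromosome 7 window the 6 calls became 26 with the likelihood-ratio test, 26 with DESeq2, 33 without the filter, 1 with only the 6 libraries, 39, 3 and 1 with the erythroid, neutrophil and macrophage covariates, 3 in a 5 Mb window, and 1 to 13 with 1 library left out. The share of calls that were lower after MI was 74.4%, and 52.9%, 85.4% and 84.2% with the erythroid, monocyte and neutrophil covariates and 86.5% without the window. Vcan passed at log2 fold changes of 2.76 with the likelihood-ratio test and with DESeq2, 2.74 without the filter, 2.76 without immunoglobulin and hemoglobin genes and 2.75 with the erythroid covariate, and ranged from 1.81 to 3.14 with 1 library left out. Il6 passed at -1.41 with the likelihood-ratio test and with DESeq2, -1.42 without the filter and -1.45 with the erythroid covariate. The cause of these changes was not tested.

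Libraries that share a replicate number did not deviate together, with correlations of -0.26, -0.15 and -0.28 across genes, so the numbers were not taken as pairs. With a replicate block the calls were 22 over 12 libraries (3 in the window), and 0 over the 6 libraries (0 in the window, 643 genes at an unadjusted p under 0.05), where Apoe stood at a log2 fold change of 6.39 (edgeR adjusted p = 0.0521).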
